A study of Homo sapiens with 372 samples.

Results

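Single A2780 cells given 5 nM paclitaxel for 16 h were compared with untreated control cells of the same line. Members were all cells whose columns carried these 2 condition names, which gave 56 treated and 46 control cells of the 338 cells in the expression table, and every one of the 9664 genes listed was compared. A2780 is an established human ovarian cancer line, described in the labels as an endometrioid adenocarcinoma. The other conditions of the study were paclitaxel for 48 h, 75 µM celecoxib for 2 or 16 h, and both drugs for 16 h. Cells were trypsinized, captured one by one on a Fluidigm C1 system and sequenced with Smart-seq2, which copies polyA-tailed RNA along its length, with a constant amount of spike-in RNA added to every well. The labels list 57 control and 58 paclitaxel 16 h cells, so that 11 and 2 of them are not in the table. The labels tie each condition to a single capture run and name no replicate cultures. Treatment and run cannot be told apart, each condition counts as 1 sample, and no test was possible. SDs and ranges below describe cells, not replicates.

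Paclitaxel binds β-tubulin in microtubules and keeps them from shortening. A dividing cell needs shortening and growing microtubules to attach its chromosomes, and the spindle checkpoint holds the anaphase-promoting complex and its activator CDC20 in check until every kinetochore is attached. Cells held in mitosis may die, divide abnormally or slip out without dividing, and slipped cells often stop under p53 and its target CDKN1A (p21). Genes of mitosis are transcribed late in the cell cycle, many of them through the DREAM and MuvB complexes, which bind a CHR element, together with NF-Y, which binds CCAAT boxes.

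Expression is given on the E scale, log2(N/10 + 1). Here N stands for a gene's TPM after division by the spike-in signal of its cell, so that a cell with less RNA has lower E-values throughout. All values were also computed at equal total, with the linear values N of each cell rescaled so that they summed to the control median. The first scale (the spike-in scale) counts RNA per cell, and the second counts a gene's share of the RNA of its cell. Genes are called up or down below where their mean E-values in the 2 conditions were more than log2 of 1.5 apart. This scale understates the change of genes of low level. Read numbers per cell were not given, so the depth is unknown and is described by the number of genes with E above 0.

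Treated cells held less RNA. Their median transcript total (N summed across all listed genes) was 0.504 times the control median, a log2 difference of -0.99. Set against the control median, log2 totals of control cells ran from -2.13 to 0.80 and those of treated cells from -1.91 to 1.53, so the ranges overlapped. Of the 56 treated cells, 53 (94.6%, exact Clopper-Pearson 95% interval 85.1 to 98.9%, which covers counting error only) lay below the control median. The spread of the log2 total over cells was 0.65 (SD) after treatment and 0.51 in control cells. A treated cell had E above 0 for a median of 6125.5 genes (4817 to 8316), against 6630 (4746 to 7854) in control cells. Genes detected and log2 total went together over cells, with Pearson's r of 0.91 over the 56 treated and 0.90 over the 46 control cells. In the authors' state annotation 31 of the treated cells were placed in the suppressive state, 23 in the control state and 2 in the activation state, and the median log2 totals of these states were -1.33, -0.46 and 1.23.

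**Figure D1:**
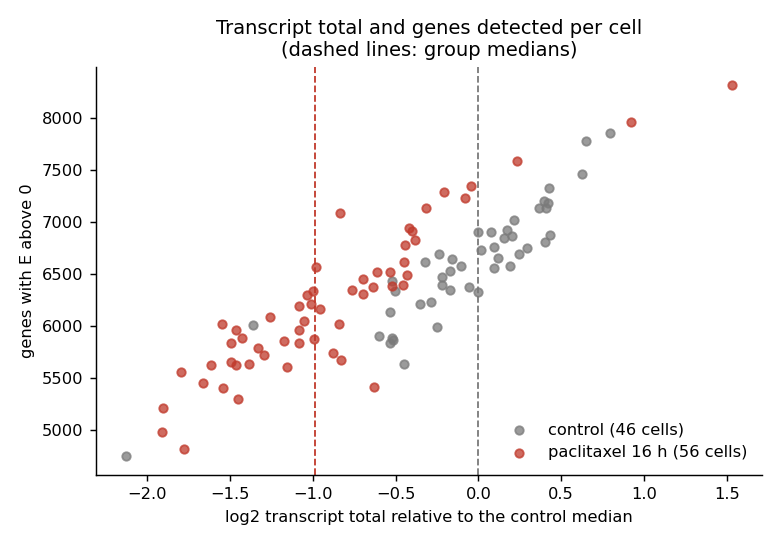
Each point is 1 cell, with its log2 transcript total relative to the control median on the x axis and the number of genes with E above 0 on the y axis. Dashed lines are group medians, 0 for control and -0.99 for paclitaxel 16 h, and both groups lie along 1 rising band.

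On the spike-in scale 3603 of 9664 genes (37.3%) were down past the limit and 9 (0.0931%) were up. At equal total 1275 genes (13.2%) were down and 182 (1.88%) were up. Those up made 0.249% of the genes past the limit on the first scale and 12.49% on the second. The median difference over all genes was -0.41 on the spike-in scale and -0.09 at equal total, and 88.1% and 62.1% of all genes were lower after paclitaxel. All 1275 genes down at equal total were also down on the spike-in scale. A mean of E weighs cells without a signal heavily, and the ratio of the linear means gave another picture. By that measure the median gene differed by -0.72 on the spike-in scale and by 0.00 at equal total. Of the 1275 genes down at equal total, 726 were also past the limit by linear means, as were 166 of the 182 genes up.

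**Figure D2:**
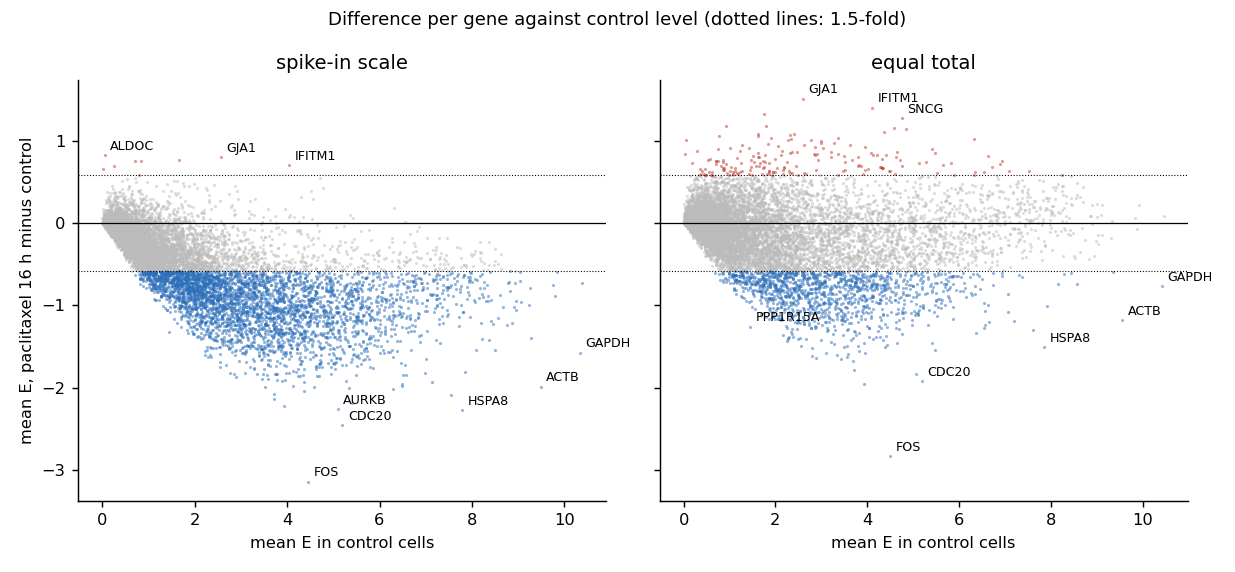
Each point is 1 of 9664 genes, with its mean E-value in control cells on the x axis and the treated minus control difference in mean E-value on the y axis, on the spike-in scale (left) and at equal total (right). Red and blue points are past the 1.5-fold limit (dotted lines). The 9 genes up on the left become 182 on the right, while FOS and CDC20 lie far below the line in both.

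Among the listed genes of division, the kinases that carry a cell through mitosis and the activator of anaphase differed most. CDC20 (chr1:43358981-43363203, + strand, GENCODE version 44 on hg38), the activator of the anaphase-promoting complex, had a mean E-value at equal total of 5.18 ± 2.01 (SD over 46 cells) in control cells and 3.26 ± 2.12 (SD over 56 cells) after paclitaxel. Control cells ran from 0 to 7.20 with a median of 5.96, and treated cells from 0 to 6.39 with a median of 3.59. The ranges overlapped, but 53 of 56 treated cells lay below the control median. The difference was -1.92 at equal total and -2.46 on the spike-in scale, and the linear mean at equal total was 3.03-fold lower. Aurora kinase AURKB (chr17:8204733-8210600, - strand), the kinase of the chromosomal passenger complex, was at 5.06 ± 2.21 and 3.22 ± 2.79, a difference of -1.83, and was detected in 40 of 46 and 37 of 56 cells. Its highest cell stood at 7.72 after treatment and at 7.34 in control. The lowest cell with a signal stood at 0.33 after treatment and at 2.35 in control. The linear mean of AURKB was 1.76-fold lower. PLK1 (chr16:23677656-23690367, + strand), the kinase of mitotic entry and spindle assembly, had a median of 3.87 (0 to 6.18) in control and of 0.12 (0 to 5.79) in treated cells and a difference of -1.65, with 30 of 56 treated cells detected against 39 of 46. Spindle kinase AURKA differed by -1.46, the kinetochore protein KNSTRN by -1.59, the mitotic cyclin CCNB1 by -1.34 and the S and G2 cyclin CCNA2 by -1.08. CDCA3, a gene of mitotic entry in no list and named after its values were seen, differed by -1.96 and was detected in 84.8% of control and 46.4% of treated cells.

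Several genes of the same phase did not follow. CENPF, a kinetochore protein of G2 and mitosis, was at 3.57 ± 1.38 in control and 3.74 ± 1.67 in treated cells. TOP2A, the topoisomerase that untangles chromosomes, was at 2.87 ± 1.81 and 2.78 ± 2.15, and the proliferation marker MKI67 at 1.77 ± 1.16 and 1.84 ± 1.59. By linear means at equal total these genes were 1.29-, 1.26- and 1.53-fold higher. CKS1B, a subunit of cyclin-dependent kinases, differed by -0.06. Single members at the upper end of their lists were the anaphase-promoting complex subunit ANAPC16, higher by 0.98, and the kinetochore protein CENPC, higher by 0.65, while 24 of the 29 genes of the checkpoint and anaphase list were lower.

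Of 24 listed genes of mitotic entry, 9 were down and none up at equal total (median -0.35), of 29 of the spindle checkpoint and anaphase 7 were down and 1 up (-0.29), of 36 of kinetochores and chromosome passengers 8 were down and 1 up (-0.35), and of 22 mitotic kinesins and cytokinesis genes 5 were down and none up (-0.21). Together 29 of 110 (26.4%) were down, against 13.2% of all genes. The share down also depends on level, with genes split below into 5 classes of equal size by mean E-value. On the spike-in scale the mean of these 110 genes per cell was 2.63 in control and 1.88 in treated cells. In the class with mean E-values of 1.59 to 2.88, 26.5% of genes were down, with a median of -0.28, so the list lay near its class. On the spike-in scale 63 of these 110 genes were down (57.3%, against 37.3% of all genes). The mean E-value of the 110 genes per cell at equal total was 2.62 ± 0.68 (1.20 to 3.60) in control cells and 2.24 ± 0.76 (0.79 to 3.59) in treated cells, with 40 of the 56 treated cells below the control median. Single cells at both ends were found in both conditions. This mean rose with the transcript total over cells, with Pearson's r of 0.60 over 46 control and 0.65 over 56 treated cells. Among cells with 6000 to 7000 genes detected (30 control and 24 treated cells, a choice made after the data were seen), CDC20, CCNB1, AURKB and PLK1 were lower by -1.83, -1.27, -1.38 and -0.94. The list medians did not hold there, at 0.05 for mitotic entry, -0.11 for the checkpoint, 0.09 for kinetochores and 0.22 for kinesins, and TOP2A was higher by 0.91.

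The starts of CDC20 and PLK1 are shown because both motifs known from late cell cycle genes occur in them. These are the last 150 bases before the start of each gene, from RefSeq on GRCh38.p14, in the direction of the gene, at chr1:43358831-43358980 and chr16:23678739-23678888, both on the + strand. The RefSeq start of PLK1 lies inside the longer span GENCODE gives the gene. Capitals mark the CHR letters TTTGAA and the letters CCAAT.
CDC20: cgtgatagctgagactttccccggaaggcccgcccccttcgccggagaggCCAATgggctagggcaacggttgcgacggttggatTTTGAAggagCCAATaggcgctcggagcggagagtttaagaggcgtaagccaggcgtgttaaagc
PLK1: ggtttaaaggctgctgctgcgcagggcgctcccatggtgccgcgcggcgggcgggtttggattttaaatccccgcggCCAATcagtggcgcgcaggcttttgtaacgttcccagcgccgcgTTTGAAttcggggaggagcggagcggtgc
In CDC20 the CHR letters lie 65 to 60 bases before the start (and again, on the other strand, at 178 to 173, outside the letters shown), with CCAAT at 100 to 96 and 55 to 51. In PLK1 they lie 29 to 24 bases before it, with CCAAT at 73 to 69. The promoters of AURKB, which differed more than PLK1, held a CCAAT box on the other strand and no CHR letters. The search covered 250 bases before the start on both strands and allowed overlaps. As CHR it took TTTGAA, the reverse complement TTCAAA and the palindrome TTCGAA, and for the CCAAT box the letters CCAAT and, read from the other strand, ATTGG. By this search 41.9% of the 93 mitotic genes with a promoter in the table held CHR letters and 69.9% held CCAAT. Among all 7582 genes of the expression table with a promoter these shares were 13.3% and 42.7%, and among all 27305 genes with a promoter 17.2% and 37.0%. The match did not sort the mitotic genes by their difference. The 31 that held both had a median of -0.39 at equal total and the other 62 of -0.30, while the 39 with CHR letters had -0.21 and the 54 without -0.37.

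Replication genes were lower than the median gene. At equal total 18 of 53 genes of origins and forks (34.0%, against 13.2% of all genes) were down and 1 was up, with a median of -0.38 against -0.09. On the spike-in scale 33 (62.3%, against 37.3%) were down. In the class of level that holds the mean of this list, 26.5% of genes were down at equal total, with a median of -0.28. The helicase subunits MCM4 and MCM7 differed by -1.25 and -1.07 and the clamp loader RFC5 by -1.16, whereas RPA3, a subunit of the single-strand binding protein, was higher by 0.70. Of 12 genes of deoxynucleotide synthesis 4 (33.3%, against 13.2% of all genes) were down and none up (median -0.46). In the class of highest level, which holds the mean of this list, 21.1% of genes were down, with a median of -0.19. Thymidine kinase TK1 was at 4.09 ± 1.24 in control and 2.96 ± 1.99 in treated cells, the ribonucleotide reductase subunit RRM2 differed by -0.76 and thymidylate synthase TYMS by -0.62. In the cells with 6000 to 7000 genes both medians were close to 0, at -0.08 for replication and -0.07 for deoxynucleotides. Among 24 genes of G1 control 6 (25.0%, against 13.2% of all genes) were down and none up, but their median of -0.11 was near the -0.09 of all genes. At the lower end the repressor E2F4, a DREAM component, differed by -1.52, CDK4 by -1.02 and CDK2 by -1.01.

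Genes of α-tubulin and of β-tubulin, which binds the drug, had a median near that of all genes at equal total. There 1 of 10 (10.0%, against 13.2% of all genes) was down and none up (median -0.13). Their mean per cell was 3.93 ± 0.61 in control and 3.68 ± 0.41 in treated cells, and 45 of 56 treated cells lay below the control median. On the spike-in scale 8 of the 10 were down (80.0%, against 37.3% of all genes), with a median of -0.75 against -0.41. TUBA1B, the highest of them, was at 8.32 ± 1.02 in control and 8.23 ± 0.59 in treated cells, TUBA1C at 5.79 in both, and TUBB at 5.89 ± 0.82 and 5.71 ± 0.56. TUBB2A was the exception at 2.80 ± 1.77 and 1.64 ± 1.82, detected in 36 of 46 and 28 of 56 cells. Class III tubulin TUBB3 was low in both, at 1.34 and 0.92. Tubulin genes share long stretches of sequence, and how the estimation of TPM divided their reads is uncertain. Among 27 microtubule-binding proteins 2 were down (7.41%, against 13.2% of all genes), the end-binding proteins MAPRE2 (-1.01) and MAPRE1 (-0.86), and none was up. The γ-tubulin TUBG1 differed by -0.70, and TBCA, a chaperone of β-tubulin, was higher by 0.68. Of 15 genes of paclitaxel transport and metabolism 6 were listed and none was past the limit, with the transporter ABCC10 highest at 0.44 and the metabolic enzyme CYP3A5 at 0.37.

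The 9 genes up on both scales were GJA1, IFITM1, TBC1D32, ANKRD20A1, GOLGA8A, ALDOC, VMO1, IFI27L2 and APH1B. GJA1 (chr6:121435595-121449727, + strand), the main gap junction protein of many tissues, had the largest rise of these at equal total. Its E-value ran from 0 to 5.42 with a median of 2.85 in control cells and from 0 to 6.29 with a median of 4.69 in treated cells, and 45 of 56 treated cells lay above the control median. The difference was 1.51 at equal total and 0.80 on the spike-in scale, and the linear mean at equal total was 2.57-fold higher. TBC1D32 (chr6:121079494-121334745, - strand), a protein of the primary cilium, lies 101 kb from GJA1. It was at 1.75 ± 1.63 in control and 3.08 ± 1.65 in treated cells, and was detected in 33 of 46 and 52 of 56 cells. Over cells its E-value and that of GJA1 had Pearson's r of 0.35 in both conditions, as a description that also holds what these cells share in total. Among cells with 6000 to 7000 genes TBC1D32 remained higher on both scales, by 1.22 and 0.76, whereas GJA1 was higher by 0.96 at equal total and 0.47 on the spike-in scale.

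ALDOC (chr17:28573115-28576948, - strand), an aldolase of glycolysis, and APH1B (chr15:63276018-63309126, + strand), a subunit of γ-secretase, were each detected in 1 of 46 control cells (2.17%, exact interval 0.055 to 11.5%) and in 18 of 56 treated cells (32.1%, 20.3 to 46.0%). IFI27L2 was detected in 5 and 19 cells and VMO1 in 10 and 19. Each of these 4 genes was absent from most cells of both conditions, so its median over cells was 0 in both. All 4 were chosen for being up, and the table holds only genes seen in more than 30% of some condition's cells. ALDOC and APH1B pass that limit in the treated but not in the control cells. The intervals therefore do not test a rise. Of the treated cells 6 held both ALDOC and APH1B and 26 held neither, with Pearson's r of -0.0004 between their E-values. In control 1 cell held both genes and 45 cells held neither. Among cells with 6000 to 7000 genes ALDOC was higher by only 0.25. GOLGA8A and ANKRD20A1, which belong to families of near-identical copies and are uncertain for that reason, were detected in 50 and 42 of 56 treated cells against 28 and 23 of 46 control cells. Further genes among the 12 largest rises at equal total were SNCG (1.28), the microRNA-silencing scaffold TNRC6B (1.18), the galectin LGALS1 (1.16), IFITM2 (1.14), the kinesin-binding KTN1 (1.11), C1orf54 (1.08), FAM172A (1.08) and PDAP1 (1.07). By linear means SNCG was higher by a log2 ratio of only 0.49, under the limit. KTN1 was detected in every cell of both conditions, and 53 of 56 treated cells lay above its control median, at 5.47 ± 0.60 against 4.36 ± 0.85. TNRC6B was likewise seen in every cell, at 2.96 ± 0.82 against 1.78 ± 0.94.

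**Figure D3:**
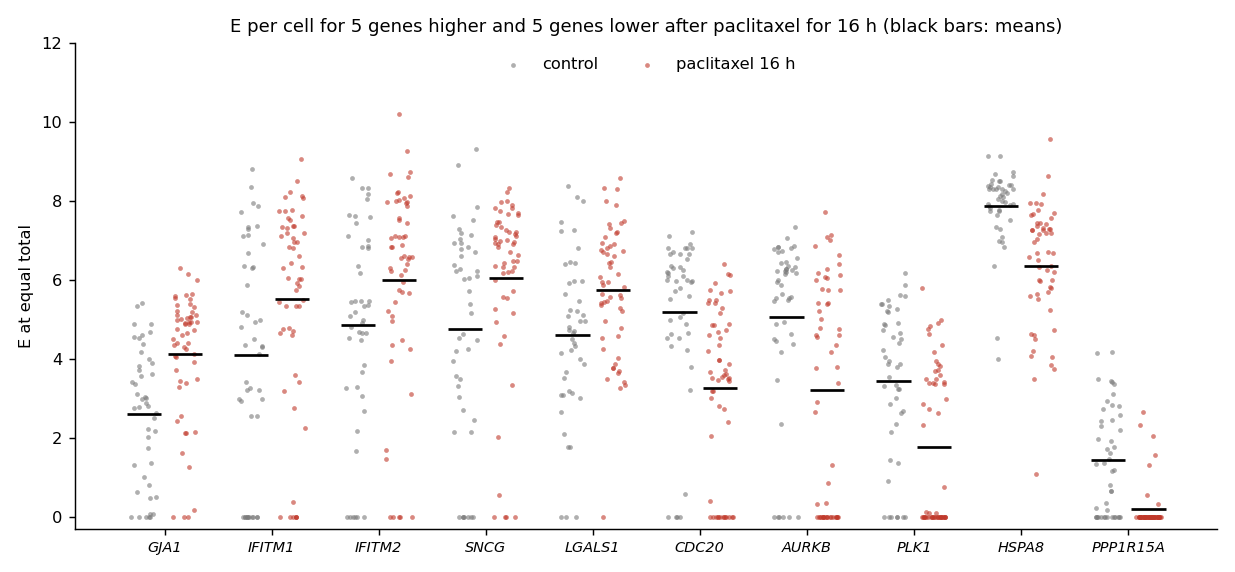
E-values at equal total of 10 genes, 1 point per cell, for control (grey) and paclitaxel 16 h (red), with black bars at the means. For GJA1, 45 of 56 treated cells lie above the control median, and for CDC20, 53 lie below it, with 37 of 56 treated cells still detected for AURKB and 30 for PLK1.

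Most interferon-linked genes did not pass the limit. Of 50 genes of interferon response and antigen presentation 33 were listed, with a median of 0.01 at equal total. There 4 (12.1%, against 1.88% of all genes) were up and 2 (6.06%, against 13.2%) down. IFITM1 (chr11:310041-315272, + strand), a membrane protein that blocks virus entry, was at 4.11 ± 2.85 in control and 5.51 ± 2.55 in treated cells, with medians of 4.34 and 6.18 and 44 of 56 treated cells above the control median. Its difference was 1.41 at equal total and 0.71 on the spike-in scale, but by linear means it was 1.61-fold higher at equal total and lower by a log2 ratio of -0.14 on the spike-in scale. Among cells with 6000 to 7000 genes IFITM1 was higher by 0.56 at equal total and 0.08 on the spike-in scale, both under the limit, and IFITM2 by 0.38 at equal total. Its neighbour IFITM2 was at 4.85 ± 2.54 and 5.99 ± 2.53, and the E-values of these near-identical paralogs had Pearson's r of 0.89 over control and 0.91 over treated cells, so that shared reads cannot be told apart from shared levels. IFIT1, an interferon-induced RNA-binding protein, was detected in 3 of 46 control cells (6.52%, 1.37 to 17.9%) and 24 of 56 treated cells (42.9%, 29.7 to 56.8%), but at a mean E-value of only 0.62 in treated cells. IRF3, a factor that switches on interferon genes, was lower by -1.12.

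Starts of the genes IFITM1 and IFIT1 are shown for the core of the interferon-stimulated response element, spelled GAAANNGAA or, on the other strand, TTCNNTTTC, in capitals. They are the last 150 bases before the start from RefSeq on GRCh38.p14, at chr11:313890-314039 and chr10:89392473-89392622, both on the + strand.
IFITM1: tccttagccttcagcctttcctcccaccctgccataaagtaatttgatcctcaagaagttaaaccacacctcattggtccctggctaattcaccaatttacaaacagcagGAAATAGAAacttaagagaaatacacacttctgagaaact
IFIT1: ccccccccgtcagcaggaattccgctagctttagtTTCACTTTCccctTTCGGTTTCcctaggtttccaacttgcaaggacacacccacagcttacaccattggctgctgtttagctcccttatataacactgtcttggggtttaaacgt
The match lies 40 to 32 bases before the start of IFITM1 and at 115 to 107 and 102 to 94 bases before that of IFIT1. Over 250 bases, 11 of 26 interferon genes with a promoter (42.3%) held the core, against 6.98% of 7582 genes of the expression table and 8.4% of all genes with a promoter.

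Targets of p53 did not move as a group. Of 37 listed, 2 (5.41%, against 1.88% of all genes) were up and 3 (8.11%, against 13.2%) down at equal total, with a median of -0.02. CDKN1A, the cyclin-dependent kinase inhibitor p21, was detected in 11 of 46 control cells (23.9%, 12.6 to 38.8%) and 25 of 56 treated cells (44.6%, 31.3 to 58.5%). Its mean E-value at equal total was 0.95 ± 2.08 and 1.45 ± 2.00, a difference of 0.49 that is under the limit. Control cells that carried it reached 8.81 and treated cells 7.16, and its linear mean was 1.76-fold lower after treatment. GDF15, a stress cytokine, showed the same form. It was detected in 8 of 46 and 21 of 56 cells, its mean E-value was higher by 0.72 at equal total and 0.56 on the spike-in scale, and the log2 ratio of its linear means at equal total was -0.38. More treated cells held these 2 transcripts, while the highest control cell held more of either than any treated cell, at 9.10 against 7.46 for GDF15. MDM2, the ligase that degrades p53, was at 2.18 ± 1.73 and 2.34 ± 2.12. RPS27L was higher by 0.59, and TRIAP1, TP53I3 and PLK2 were lower by -0.90, -0.86 and -0.69. The study had named GDF15, IFITM1, IFITM2 and CDKN1A from these same cells, and SNCG was listed with them here. That 4 of these 5 were up at equal total is therefore not independent evidence, and on the spike-in scale only 1, IFITM1, was up. The study drew its genes from those raised in control-like cells at 48 h and grouped cells by state. Here all 56 treated cells at 16 h are counted, so the sets of cells differ.

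Cytosolic ribosomal protein genes took a larger share of the RNA of treated cells. At equal total 76 of 84 of them were higher, with a median of 0.30 against -0.09 for all genes. Past the limit 7 (8.33%, against 1.88% of all genes) were up and none was down. On the spike-in scale none was up and 30 were down (35.7%, near the 37.3% of all genes). The mean over these genes per cell was 7.43 ± 0.35 in control and 7.71 ± 0.20 in treated cells, and 53 of 56 treated cells lay above the control median. RPL36A (0.72), RPL22 (0.68) and RPS3A (0.64) were the highest, and FAU (-0.45) the lowest. Translation factors as a list did not share this, with a median of -0.10 and 42 of 56 treated cells below the control median of their mean. Of 60 factors 3 (5.0%, against 1.88% of all genes) were up and 10 (16.7%, against 13.2%) down. Of these the elongation factor EEF2 was at 3.63 ± 0.96 and 4.59 ± 0.88 and the initiation factor EIF4B was higher by 0.83, but EIF5 (-1.19), EIF2B1 (-1.20) and EIF2B4 (-1.16) were lower. Of 80 nuclear genes of the respiratory chain 55 were higher (median 0.15), with UQCRB of complex III at 0.90 and NDUFB1 of complex I at 0.82. Past the limit 4 (5.0%, against 1.88% of all genes) were up and 3 (3.75%, against 13.2%) down. NDUFB1 lay above its control median in all 56 treated cells. Mitochondrial ribosomal proteins did not share the rise, with none of 77 up and 13 down (16.9%, against 13.2% of all genes). Their median of -0.15 was near the -0.09 of all genes. In the class of highest level 21.1% of genes were down, with a median of -0.19.

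**Figure D4:**
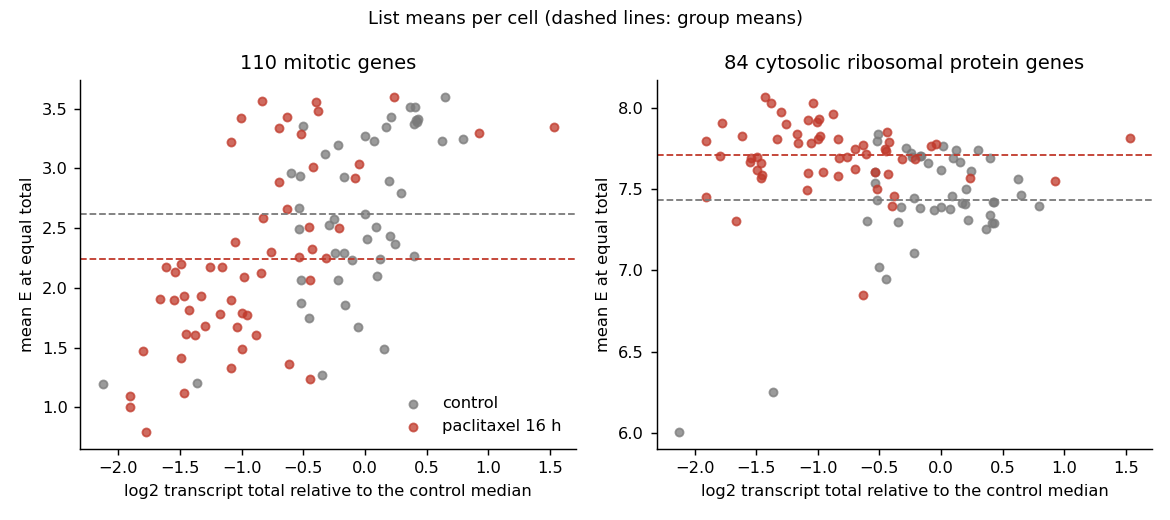
Mean E-value at equal total per cell over 110 mitotic genes (left) and 84 cytosolic ribosomal protein genes (right) against the log2 transcript total relative to the control median, with dashed lines at the group means. The mitotic mean goes up with the total in both conditions, while 53 of 56 treated cells lie above the control median of the ribosomal mean.

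Genes that make ribosomes were lower where those of the ribosome itself were higher. Of 43 genes of nucleolar ribosome biogenesis 14 (32.6%, against 13.2% of all genes) were down and none up at equal total (median -0.42). Of the treated cells, 52 of 56 lay below the control median of their mean. UTP4, a part of the small subunit processome, was at 3.72 ± 1.10 in 46 control and 1.93 ± 1.73 in 56 treated cells, a difference of -1.79 and a 2.49-fold lower linear mean. LTV1 (-1.42) and TSR1 (-1.19), both of the small subunit, followed, and fibrillarin FBL was higher by 0.37. Among 44 proteasome genes 14 (31.8%) were down and none up (median -0.37). In the upper classes of level given below, 26.5% and 21.1% of genes were down. PSMF1 (-1.37) and PSMC4 (-1.02) were lowest and the activator subunits PSME1 (0.46) and PSME2 (0.25) highest of the proteasome genes. The proteasome mean per cell was 5.88 ± 0.24 in control and 5.51 ± 0.31 in treated cells, and 55 of 56 treated cells lay below the control median.

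Heat shock chaperones were lower as well. Of 26 cytosolic and mitochondrial heat shock genes 11 (42.3%, against 13.2% of all genes) were down and none up at equal total (median -0.32). On the spike-in scale 22 were down (84.6%, against 37.3%). HSPA8 (chr11:123057489-123063230, - strand), the constitutive HSP70, was detected in every cell. It ran from 3.99 to 9.14 with a median of 8.10 in control cells and from 1.09 to 9.56 with a median of 6.68 in treated cells, and 53 of 56 treated cells lay below the control median. The difference was -1.51, and the linear mean was 2.15-fold lower. The co-chaperones DNAJB1 (-1.25) and DNAJA1 (-1.07) went the same way, while the mitochondrial chaperonin HSPD1 (0.09) and HSPB1 (0.13) were near their control levels. The start of HSPA8 is shown for the heat shock element core GAANNTTC, which reads the same on both strands, in capitals, over the last 150 bases before the start (RefSeq, GRCh38.p14, chr11:123062137-123062286, - strand).
HSPA8: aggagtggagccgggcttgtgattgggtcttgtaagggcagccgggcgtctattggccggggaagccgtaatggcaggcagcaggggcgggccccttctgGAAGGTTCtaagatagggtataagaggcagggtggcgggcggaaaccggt
The core lies 50 to 43 bases before the start, and again at 230 to 223, outside the letters shown. Over 250 bases it was found in 10 of 22 heat shock genes with a promoter (45.5%), in 5.58% of the genes of the expression table and in 7.05% of all genes with a promoter. Of 25 chaperones and folding genes of the endoplasmic reticulum 5 (20.0%, against 13.2% of all genes) were down and none up. That share did not exceed the 26.5% and 21.1% of the upper classes of level. HERPUD1 (-1.13) and XBP1 (-1.12) were lowest.

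Of all 9664 genes, the largest difference was that of an immediate early gene. FOS, a part of the AP-1 factor, ran from 0 to 8.32 with a median of 5.16 in control cells and from 0 to 5.90 with a median of 0 in treated cells. It was detected in 37 of 46 and 24 of 56 cells, and the difference was -2.83 at equal total and -3.15 on the spike-in scale, with an 8.02-fold lower linear mean. IER2 (-1.39) and KLF6 (-1.28) went with it. Of 24 listed genes of immediate early and NF-κB response 7 (29.2%, against 13.2% of all genes) were down and none up at equal total. Their mean per cell was 1.51 ± 0.58 in control and 0.97 ± 0.20 in treated cells, 55 of 56 treated cells lay below the control median, and the spread over cells was narrower after treatment. The integrated stress response was mixed, with 3 of 27 genes (11.1%, against 13.2% of all genes) down and 1 (3.70%, against 1.88%) up. PPP1R15A (GADD34), which ends that response, was detected in 32 of 46 control cells (69.6%, 54.2 to 82.3%) and 7 of 56 treated cells (exact interval 5.18 to 24.1%), with a 10.9-fold lower linear mean. DDIT4, an inhibitor of mTORC1, was detected in 23 of 46 and 45 of 56 cells and was higher by 0.92.

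Structural and metabolic genes of high level also separated the conditions. β-Actin ACTB was at 9.56 ± 0.51 in control and 8.38 ± 0.52 in treated cells, and none of the 56 treated cells reached the control median of 9.69. The glycolytic enzymes GAPDH, ENO1 and PKM were lower by -0.76, -0.74 and -0.82. GAPDH ran from 9.69 to 10.9 in control and from 7.77 to 11.0 in treated cells, and 53 of 56 treated cells lay below the control median. GAPDH and ACTB are often used as reference genes, and here both differed beyond the median gene on either scale (-1.58 and -1.99 on the spike-in scale). In the list of actin cytoskeleton, annexins and S100 proteins 10 of 44 (22.7%) were down and 4 (9.09%) up, against 13.2% and 1.88% of all genes. The share down was near the 21.1% of the class of highest level, where 3.67% were up. ANXA2 (-1.08) and ANXA5 (-1.03) were lower, and S100A4 (0.76), ANXA1 (0.87) and LGALS1 were higher, each with a spread over cells above the difference. Among 28 genes of the BCL2 family and apoptosis 6 (21.4%, against 13.2% of all genes) were down and none up. In the class of level that holds the mean of this list, 26.5% of genes were down. HTRA2 (-0.77) and DIABLO (-0.75) were among the 6 genes down, and the caspase inhibitor XIAP (0.54) was highest.

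**Figure D5:**
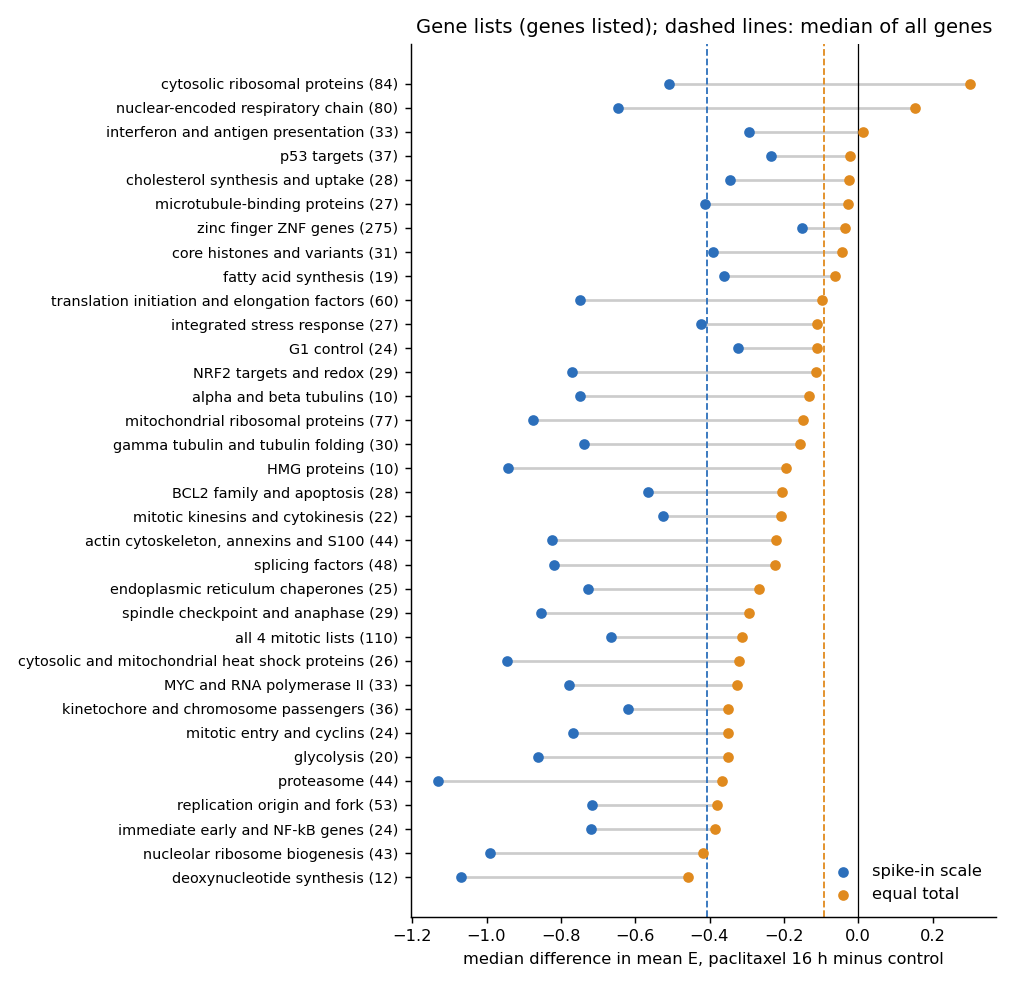
Median treated minus control difference in mean E-value for gene lists with 10 or more genes listed (their number in brackets), on the spike-in scale (blue) and at equal total (orange), with dashed lines at the medians of all genes, -0.41 and -0.09. Every list shown lies below 0 on the spike-in scale, and at equal total cytosolic ribosomal proteins (0.30), the respiratory chain (0.15) and interferon genes (0.01) lie above it.

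At equal total the median of splicing factors was -0.23 (1 up and 12 down of 48, 25.0%). For genes of MYC, transcription elongation and RNA polymerase II it was -0.33 (none up and 9 down of 33, 27.3%). All genes had a median of -0.09 with 13.2% down, and the upper classes of level -0.28 and -0.19 with 26.5% and 21.1% down. Of the 56 treated cells, 50 and 54 lay below the control medians of these list means. CDK9, the kinase that releases paused polymerase, was at 3.50 ± 1.33 and 2.00 ± 1.65. Histones had a median of -0.04 (1 up and 3 down of 31), HMG proteins -0.20 (1 up and 3 down of 10), redox and NRF2 targets -0.11 (1 up and 4 down of 29), cholesterol genes -0.02 (3 down of 28), fatty acid genes -0.06 (1 down of 19) and zinc finger genes -0.03 (3 up and 22 down of 275). Outside the lists, and with a signal in 50% or more of the cells on either side, the largest falls were BCS1L (-1.67), the mRNA export factor NXF1 (-1.63), GORASP2 (-1.61), ARMC8 (-1.60), C1orf174 (-1.58), MED10 (-1.57) and BRMS1 (-1.56). Each was detected in at most 37 of 56 treated cells and in at least 39 of 46 control cells.

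Shares of cells with a gene detected changed most for PPP1R15A, FAM118B (39 of 46 to 17 of 56), IFRD1 (38 to 23), PRKAB1 (28 to 10), PPP2R5D (29 to 12) and POSTN (23 to 4). Increases were largest for PLCG2 (13 of 46 to 41 of 56), IFIT1, ZC3H6 (8 to 32), ZNF90 (13 to 37), LANCL1 (17 to 42) and AC073464.10 (12 to 36). All these genes were chosen by this change, so the intervals given for PPP1R15A and IFIT1 do not test it. Of the genes with an increase, LANCL1 had the highest mean E-value in treated cells, 1.05, and PLCG2 the lowest, 0.17. Of all genes, 61.5% were detected in a smaller share of treated than of control cells. The difference at equal total also depended on level. In 5 classes of equal size by mean E-value, from the lowest to the highest, its median was 0.01, -0.07, -0.15, -0.28 and -0.19, and the share of genes down was 0.207%, 4.04%, 14.1%, 26.5% and 21.1%. On the spike-in scale the medians were -0.06, -0.25, -0.44, -0.73 and -0.91. By linear means at equal total the same classes lay at 0.16, 0.02, 0.00, -0.05 and -0.04. Shares of lists set against all genes do not take level into account.

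Values of other conditions are given side by side, since they share the control cells. At equal total CDC20 had a mean E-value of 5.18 in control, 3.26 with paclitaxel at 16 h, 2.92 with paclitaxel at 48 h, 2.11 with both drugs at 16 h, 2.75 with celecoxib at 16 h and 2.41 with celecoxib at 2 h. For PLK1 these means were 3.43, 1.78, 1.28, 1.23, 1.47 and 1.59 in the same order. IFITM1 stood at 4.11, 5.51, 7.06, 6.55, 6.04 and 6.19, and GJA1 at 2.60, 4.12, 3.31, 3.51, 3.78 and 3.54. For FOS they were 4.50, 1.67, 4.48, 2.72, 5.14 and 3.87, so that paclitaxel at 16 h had the lowest of these 6 means. Those of CDKN1A were 0.95, 1.45, 3.16, 0.85, 2.66 and 1.13, and those of HSPA8 were 7.86, 6.35, 6.96, 6.71, 7.73 and 6.64.

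Markers of the tissue were few in the table. Of 15 epithelial and ovarian markers only VIM and KRT18 were listed. VIM, better known from mesenchymal cells, was detected in 35 of 46 and 35 of 56 cells, and KRT18 in 11 and 14. Of 16 markers of other cell types 4 were listed. LYZ and LUM differed by 0.01 and 0.07, COL1A2 and COL3A1 by -0.25 and -0.40, and the mean over the 4 ran from 0 to 2.22 in control and from 0 to 2.78 in treated cells.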

How the data were processed

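The authors' pipeline used Trim Galore for the reads, then Bowtie2 within RSEM 1.3.0 for TPM, against GENCODE transcripts of hg38 plus spike-in sequences. TPM were divided by the highest spike-in RNA of the cell, cells with weak housekeeping genes were removed, and genes were kept if seen in more than 30% of any condition's cells. The deposited E-values are on a log2 scale with a pseudocount of 10 normalized TPM. All 338 columns of cells matched a label and 0 were left unused. Doublets were not called, since that needs counts.

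Linear values were recovered from E and rescaled to the control median total. Each condition is 1 sample, so genes were counted past 1.5-fold and no test was made. Members and lists were chosen with earlier results of these data known. The genes named were those up on both scales, the 12 largest rises and falls with detection in 50% or more of cells on either side, the 6 largest changes of detected share each way, up to 3 members at either end of each of 37 lists if seen in 30% of the cells of a condition (all members of lists of up to 16), and 11 genes of the cell cycle, p53 and the study. Alternatives were a ratio of linear means, other pseudocounts, detection limits, averages, scalings and sets of cells, of which the cells with 6000 to 7000 genes were added after seeing the data. The scales were tested on simulated data drawn without dropout, so that test does not cover the effect of cells without a signal. Promoters are RefSeq's (GRCh38.p14). Coordinates are from GENCODE version 44, which matched 9643 of 9664 identifiers. Scripts ran on numpy 2.4.6, scipy 1.17.1, pandas 2.3.3 and matplotlib 3.10.9 under Python 3.11.15. Some items are not reported here.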

Additional observations from a re-analysis of the deposited data

How the results depend on the processing

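Counts of genes depended most on how low cells weigh. By the ratio of linear means, genes down on the spike-in scale were 5766, genes up on it 304, and genes up at equal total 1641, with 1564 down, so that 51.2% of those past the limit were up in place of 12.49%. With a pseudocount of 1 normalized TPM, 5514 genes were down and 134 up on the spike-in scale, and 3022 down and 656 up at equal total, where the median gene lay at -0.25. By medians over cells 59 genes were up on the spike-in scale and 383 at equal total. Among cells with 6000 to 7000 genes detected these were 67 and 450, and the latter made 26.7% of those past the limit. On the spike-in scale 5 genes were up once both conditions had to hold the gene in 50% or more of their cells and 21 without the 20% of cells with the fewest genes. Other scalings to an equal total gave between 135 and 194 genes up and between 969 and 1250 down. Of 37 lists 23 kept the sign of their median at equal total under all 9 alternatives. By linear means the median was -0.80 for immediate early genes, 0.25 for fatty acid synthesis and -0.076 for MYC and RNA polymerase II genes. With a pseudocount of 1 it was -0.84 for immediate early and -0.88 for nucleolar genes. By linear means GDF15 at equal total (-0.38) and IFITM1 on the spike-in scale (-0.14) turned over, as did, from values under the limit at equal total, CDKN1A (0.49 to -0.81), POSTN (-0.03 to 0.72) and TOP2A (-0.09 to 0.33). Where fewer cells or genes were used the count rests on them, and otherwise the cause was not tested. No paired analysis was possible because each condition is 1 capture run. Read depth per cell is unknown, and 34.9% of E-values in the table are 0, so a gene without a signal in a cell may be below detection there.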

Other observations

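The difference at equal total also went with the length of the gene on the genome, a pattern looked at after the data were seen. In 5 classes of genes of equal size by their span in GENCODE version 44, from a median of 6.17 kb to one of 153 kb, the class medians of this difference were -0.19, -0.15, -0.13, -0.07 and 0.01, and by linear means it was -0.18, -0.10, -0.03, 0.07 and 0.25. In the shortest class 21.5% of genes were down and 2.33% up, and in the longest 5.34% were down and 3.06% up. Within each of 5 classes of genes by level the longest genes lay above the shortest, by linear means at 0.34 against 0.02 in the lowest and 0.15 against -0.08 in the highest class of level. Span is not transcript length, and what else differs between short and long genes was not tested.

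Cells differed more from each other after paclitaxel once the totals were made equal. Over the 5844 genes whose mean E-value exceeded 1, taken at equal total, the median SD over cells was 1.19 in control and 1.42 in treated cells, and the SD was larger in treated cells for 83.5% of these genes. On the spike-in scale the medians were 1.21 and 1.23, and 51.4% of genes had the larger SD after treatment. Lower totals and fewer genes detected moved with this, and their part in it was not tested.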
